A study of Saccharomyces cerevisiae with 10 samples.

Results

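Chromosome I of Saccharomyces cerevisiae was followed through the SNP microarrays of 10 diploid isolates. Its members were all probes whose name places them on chromosome I, 1294 of the 53664 probes on the array. They form 288 SNPs with probes for both alleles, which is 2.14% of the 13461 such SNPs, and 78 further positions with probes for 1 allele. The chromosome was chosen by measured values of these arrays, namely the allele runs at the left end of HK12 and the raised signal of both alleles in the HK isolates, so these 2 patterns are described here without a test.

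The isolates were 2 of HK12 (A and B), 2 of HK10 (A and B), 2 zygotes of MD893-2 and 4 zygotes of MD893-1, both crossed with LSY3454-2. All were labelled as diploids of the W303-1A by YJM789 background, grown at 30° in YPD. The study's title asks about genome instability from cleavage by RNase H2 at ribonucleotides built into DNA, but the labels give no genotype for the HK names or the crosses. The A and B isolates of a name may come from 1 culture, so the spread between them may be smaller than between independent isolates, whereas the zygotes are labelled as independent. Each isolate's DNA, in Cy5, was hybridised together with that of JSC24, a control diploid, in Cy3, and a positive log2 ratio means more signal from the isolate.

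Chromosome I is the smallest yeast chromosome. In a hybrid of diverged strains, a diploid that keeps both homologs gives signal for both alleles of a SNP. Loss of heterozygosity, through gene conversion, crossing over or loss of a homolog, leaves probes of the lost allele with little signal, whereas an extra or missing whole chromosome shifts both alleles together along its length. An extra copy of chromosome I is known to be well tolerated by yeast.

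For each SNP, d was the mean log2 ratio of its S probes minus that of its Y probes, so that d near 0 means both alleles, a high d only S, and a low d only Y. The letters S and Y are the allele names of the probes and are not tied to a parent in the sources used here. The signal of both alleles, s, was the mean of their log2 ratios minus the median s of the heterozygous SNPs on the same array. It reads chromosome I relative to the rest of that array's genome and carries no information on total DNA content.

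The assayed SNPs ran from position 2813 to 209236 in the coordinates of the deposited table, with a median spacing of 312 bp, against 368 bp over all chromosomes. The longest stretch without a SNP was 16048 bp, from 11599 to 27647, and the next was 13795 bp, from 195441 to 209236. The allele difference was measured on all 10 arrays for 242 of the 288 SNPs and on none for 3. Probes of chromosome I without a value were 9.43% and 9.81% in HK12 A and B, 7.26% and 12.2% in HK10 A and B, 10.7% in both zygotes of MD893-2 and 1.55% to 4.33% in those of MD893-1. The noise of d over all SNPs was 0.138 to 0.192 on 9 arrays and 0.272 on that of MD893-2 zygote 2.

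At the left end of chromosome I, both HK12 isolates had lost the Y allele in 2 stretches and the S allele in a short stretch between them, while HK10 and all 6 zygotes kept both alleles there. From the left, the order of states in HK12 was S only, both alleles, Y only, S only, and both alleles for the rest of the map. A single SNP with signal of both alleles lay between the Y-only stretch and the S-only stretch after it. The first and the last SNP that had lost an allele lay 42.8 kb apart. Both isolates changed state at the same places as far as their measured SNPs show.

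The leftmost S stretch began at SNP 2880, the second SNP of the map. It ended at SNP 28735 in HK12 A and at 28705 in HK12 B, where SNP 28735 had no d. Over it, HK12 A had 18 measured SNPs with a median d of 3.63, from 2.01 to 4.82. HK12 B had 16 measured SNPs with a median d of 3.30, from 1.93 to 4.27. Every measured SNP of the stretch was far above 0 in both isolates. Its inner part rests on few SNPs, because the gap of 16048 bp lies within it.

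The outermost SNP, 2813, differed from its neighbours. Its d was -0.45 in HK12 A, where S stood at 0.64 and Y at 1.08 on the centred log2 scale. In HK12 B it had no Y value and thus no d, and its S level was 0.40. The d of this SNP was 0.26 in HK10 B and -0.18 to 0.34 in the MD893-1 zygotes. The model joined it to the S stretch, whereas in HK12 A its probes of both alleles gave signal. No array had a large d at this SNP, so whether its probes tell S from Y was not shown. It is 1 SNP with a d on 1 HK12 array, so how far the stretch reaches toward the end of the chromosome was not resolved.

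To the right of SNP 28735, 11 SNPs from 31007 to 38109 carried both alleles in HK12. This heterozygous stretch of 7.10 kb had a median d of -0.21 in HK12 A, from -0.50 to 0.04, and of -0.18 in HK12 B, from -0.56 to 0.22. The S-only stretch therefore ended between 28735 and 31007, an interval of 2272 bp in HK12 A. Signal of both alleles in the heterozygous stretch was as raised as elsewhere on the chromosome, with a median s of 0.72 in HK12 A and 0.67 in HK12 B.

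The Y-only stretch followed. In HK12 A it held 4 measured SNPs from 38493 to 39908, 1.42 kb apart, with a median d of -4.15, from -4.98 to -3.21. In HK12 B it held 3 measured SNPs from 38877 to 39908 with a median d of -3.11, from -4.01 to -2.73. SNP 38493 had no Y value in HK12 B, but its S level there was -3.32, next to -3.33 in HK12 A, against 0.75 and 0.81 in HK10 A and B. The S signal was thus low at that SNP in both HK12 isolates, and the border to the heterozygous stretch lies within 384 bp in HK12 A.

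At SNP 40369, 461 bp past the Y-only stretch, the probes of both alleles gave signal again. The S level was 0.75 in HK12 A and 0.93 in HK12 B, and the Y level 1.02 and 1.01. The corresponding d was -0.29 and -0.10, against 0.05 and 0.21 in HK10 A and B. No array had a large d at this single SNP, so whether its probes tell S from Y was not shown. The model put this SNP into the Y run of both isolates, whereas its own values were those of a heterozygous SNP. With it the Y run held 5 SNPs in HK12 A, the minimum for a call, and 4 in HK12 B, where the run was thus not called; without it HK12 A also had 4.

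The second S-only stretch began at SNP 41791 and ended at 45688, over 3.90 kb. It held 6 measured SNPs in HK12 A with a median d of 3.41, from 2.27 to 4.24, and 5 in HK12 B with a median d of 2.92, from 2.59 to 3.85. SNP 46658, 970 bp further on, was heterozygous with d of -0.02 in HK12 A and -0.22 in HK12 B. No run of 5 SNPs was called to its right in any isolate.

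**Figure D1:**
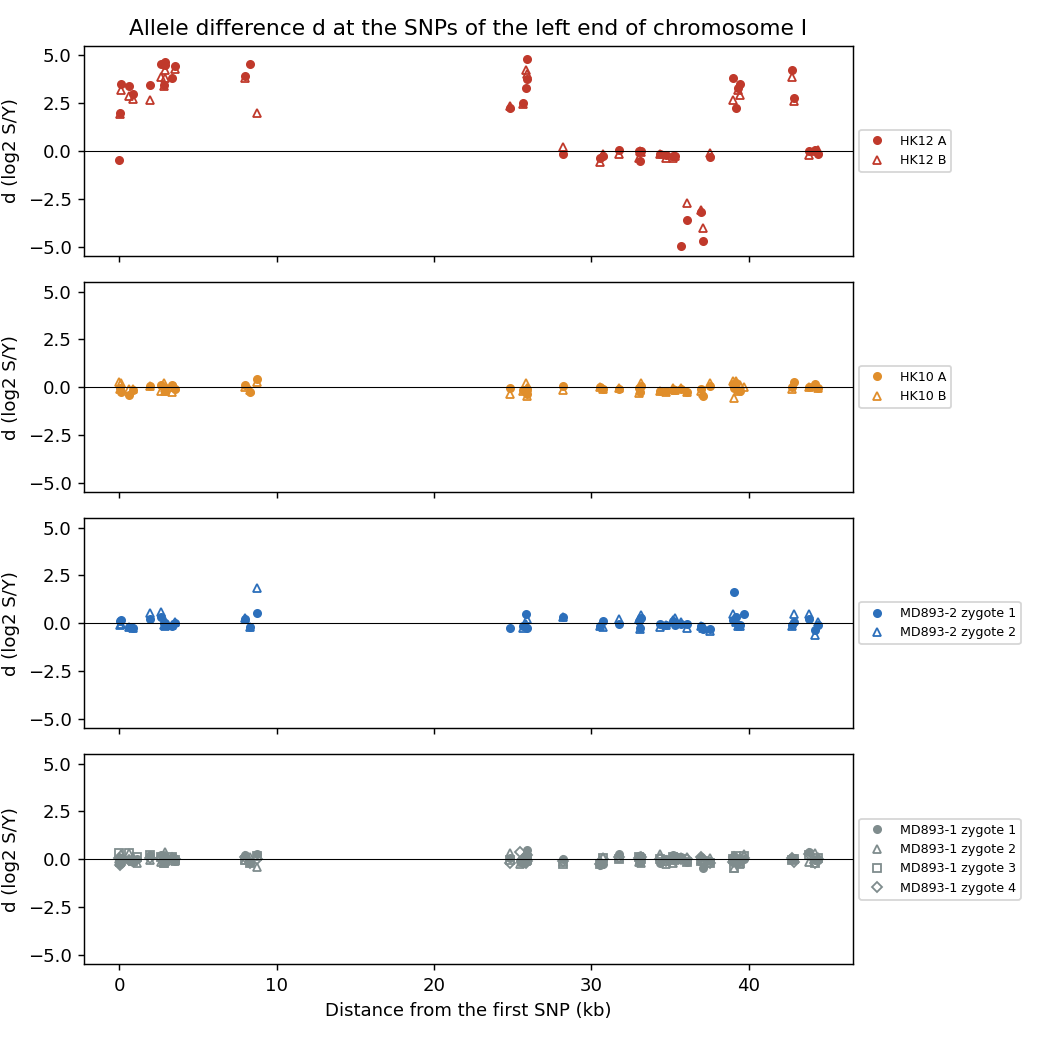
Allele difference d (log2 S over Y) at the SNPs of the left end of chromosome I against the distance from the first SNP in kb, with 1 panel for each group and 1 symbol for each isolate. HK12 A and B show high d in 2 stretches and low d in 1 between them. The stretches are separated by 11 heterozygous SNPs and by a single SNP with d near 0. HK10 and the zygotes stay near 0 apart from single SNPs of the MD893-2 zygotes.

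Over the SNPs of the leftmost S stretch, the median d was -0.08 in HK10 A and -0.09 in HK10 B. In the zygotes it was -0.07 to 0.01. Over the Y-only stretch it was -0.20 and -0.24 in HK10 A and B, and -0.20 to 0.06 in the zygotes. No SNP of these stretches reached an absolute d of 1 in HK10 or the MD893-1 zygotes. In the MD893-2 zygotes 2 single SNPs did, 11599 in zygote 2 with a d of 1.81 and 41872 in zygote 1 with a d of 1.64. Neither had a neighbour of the same kind.

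The allele that remained in the HK12 stretches was brighter than the same allele on the rest of the chromosome. In the leftmost S stretch, the S level was 1.40 in HK12 A and 1.18 in HK12 B, against 0.60 and 0.59 in HK10 A and B. The S level of heterozygous SNPs of chromosome I was 0.64 in both HK12 isolates. SNP by SNP, the median difference in S from the HK10 mean was 0.73 ± 0.21 (SD over SNPs) in HK12 A and 0.50 ± 0.15 (SD over SNPs) in HK12 B. The lost Y allele stood at -2.33 in HK12 A and -2.06 in HK12 B, against 0.74 and 0.71 in HK10 A and B.

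The Y-only stretch mirrored this for the other allele. Its Y level was 1.64 in HK12 A and 1.34 in HK12 B, against 0.91 and 0.90 in HK10 A and B. Its S level was -2.45 in HK12 A and -1.99 in HK12 B, against 0.61 and 0.66 in HK10 A and B. In the second S-only stretch, the S level was 1.41 in HK12 A and 1.17 in HK12 B, against 0.66 and 0.75 in HK10 A and B. In each of the 3 stretches the remaining allele was higher in HK12 A than in HK12 B.

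As linear ratios to the array's centre, the remaining allele had 2.63, 3.11 and 2.65 times that level in HK12 A over the 3 stretches, from the left. In HK12 B it had 2.27, 2.53 and 2.25 times. Heterozygous SNPs of the chromosome had 1.56 times for S in both HK12 isolates, and 1.74 and 1.72 times for Y in HK12 A and B. In the leftmost stretch the mean of both alleles, s, was -0.50 for HK12 A and -0.49 for HK12 B. It falls there by construction, since the log2 ratio of a lost allele is strongly negative, so these stretches were left out of every value of s below.

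**Figure D2:**
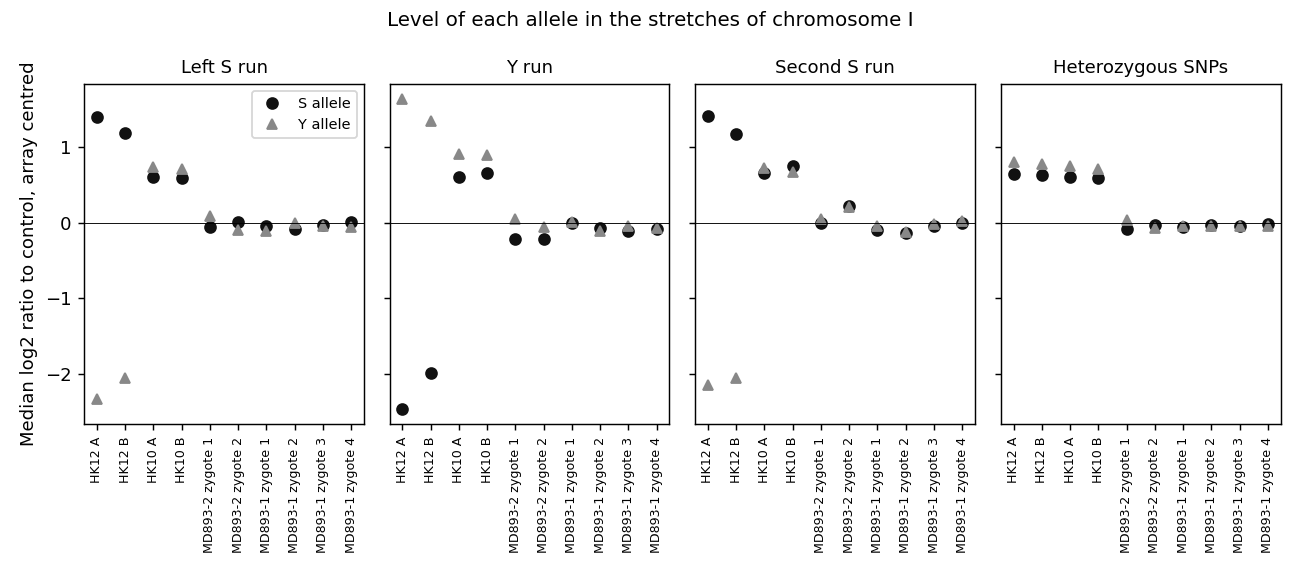
Median log2 ratio to the control, centred per array, for the S allele (black circles) and the Y allele (grey triangles) in each isolate, in the 3 HK12 stretches and at the heterozygous SNPs of chromosome I. In HK12 A and B the remaining allele lies at 1.17 to 1.64 and the lost allele at -2.45 to -1.99, HK10 has both alleles raised, and the zygotes have both near 0.

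Signal of both alleles was raised over the whole of chromosome I in all 4 HK isolates. The median s of its heterozygous SNPs was 0.72 in HK12 A, 0.70 in HK12 B, 0.68 in HK10 A and 0.64 in HK10 B. Both MD893-2 zygotes had -0.02, and the 4 of MD893-1 had -0.05, -0.04, -0.04 and -0.03. The HK isolates averaged 0.68 ± 0.03 (SD, n = 4) and the zygotes -0.03 ± 0.01 (SD, n = 6), with no overlap. In linear terms the signal was 1.56 to 1.64 times the array's centre in the HK isolates and 0.963 to 0.985 times in the zygotes.

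Both alleles took part. The median S level was 0.64 in HK12 A and B and 0.60 in HK10 A and B, and -0.08 to -0.02 in the zygotes. The median Y level was 0.80, 0.78, 0.75 and 0.72 in HK12 A, HK12 B, HK10 A and HK10 B, and -0.06 to 0.04 in the zygotes. Of the heterozygous SNPs, s was above 0 at 98.3% in HK12 A, 100% in HK12 B, 99.6% in HK10 A and 98.2% in HK10 B. In the zygotes it was above 0 at 36.1% to 46.0%.

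The rise extended along the whole assayed length. In windows of 20 kb with at least 5 heterozygous SNPs, median s ran from 0.70 to 0.76 in HK12 A and from 0.67 to 0.74 in HK12 B, in 9 windows each. It ran from 0.63 to 0.78 in HK10 A and from 0.59 to 0.70 in HK10 B, in 10 windows each. In the zygotes the windows lay between -0.14 and 0.06. The lowest HK window was thus above the highest zygote window in every one of the 10 windows, although the first window has only the 2 HK10 isolates because HK12 had no heterozygous SNP called there. Windows of the other chromosomes were not compared, so this count only describes chromosome I. The heterozygous SNPs that lie between the HK12 stretches had the same raised signal as the rest.

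**Figure D3:**
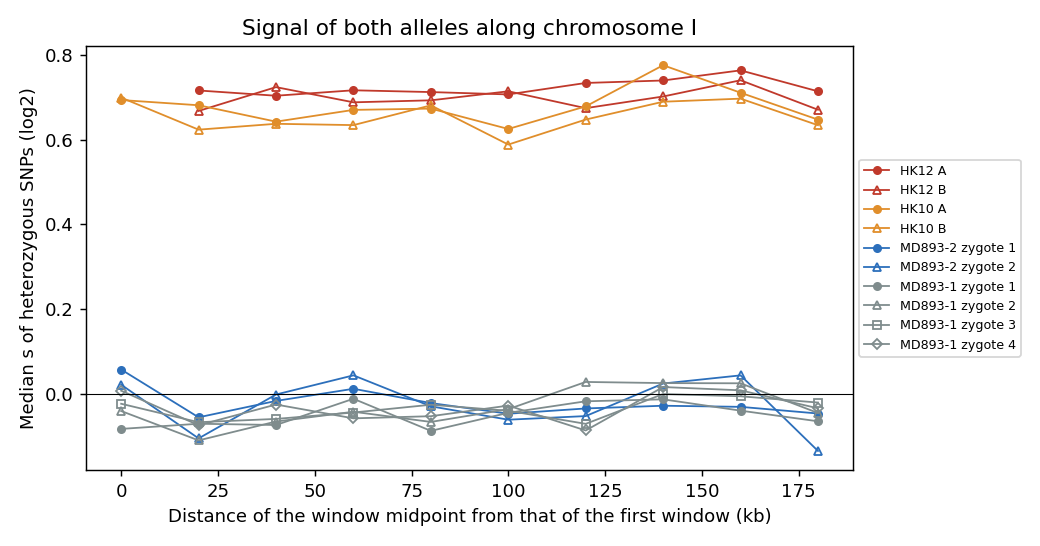
Median s of heterozygous SNPs (log2, array centred) in windows of 20 kb along chromosome I, by isolate, against the distance of the window midpoint from that of the first window in kb. The HK lines stay between 0.59 and 0.78 from end to end and the zygote lines between -0.14 and 0.06.

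Of the 220 SNPs of chromosome I that were heterozygous and measured in all 10 isolates, 214 (97.3%) had all 4 HK isolates above all 6 zygotes. Over all chromosomes this held for 17.1% of 9369 SNPs, and on chromosomes VI and III for 94.4% and 90.3%. All 4 lay below all 6 zygotes at 0 SNPs of chromosome I and 7.07% of SNPs in all. Since the raised signal chose the chromosome, nothing is read from the differences between these shares. The mean of the HK isolates was above that of the zygotes at 220 of 220 SNPs, with a median difference of 0.74 and a range of 0.03 to 1.00. At the 6 SNPs where the groups overlapped, the spread within the zygotes was wide: at SNP 69664, s averaged 0.31 ± 0.23 (SD, n = 4) over HK isolates, against 0.28 ± 0.28 (SD, n = 6) over zygotes.

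Single SNPs differed in level among themselves. The 3 highest mean s values over the HK isolates were 0.99 at SNP 151000, 0.97 at SNP 98408 and 0.94 at SNP 175339. The zygote means there were 0.22, 0.13 and 0.16, so these SNPs were also on the high side in isolates without the rise. The 3 lowest HK means were 0.17 at SNP 75029, 0.17 at SNP 171372 and 0.22 at SNP 77141, with zygote means of -0.45, -0.19 and -0.06. SNPs 75029 and 171372 were also low in the zygotes, whereas the zygote mean of SNP 77141, with an SD of 0.26 (n = 6), was near that of the chromosome. Across the 220 SNPs, Pearson's r of s was 0.66 between HK12 A and B and 0.72 between HK10 A and B, and 0.54 to 0.67 over the 4 pairs of an HK12 with an HK10 isolate, so these values do not set the names apart. These points share the probes and the control DNA, and r is across SNPs, which are not independent replicates.

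Chromosome I had the highest s of the 16 chromosomes in the HK isolates, at 0.68 ± 0.03 (SD, n = 4). Chromosome VI followed with 0.62 ± 0.02 and III with 0.46 ± 0.02, while IX had 0.28 ± 0.01 and IV, the longest by assayed length, -0.15 ± 0.01 (SD, n = 4 each). The lowest s was that of XII, -0.20 ± 0.01 (SD, n = 4), although its assayed length was 1041 kb, against 1512 kb for IV. The ranges of I and VI over the HK isolates, 0.64 to 0.72 and 0.59 to 0.65, overlapped slightly. A curve in the logarithm of chromosome length fitted to the other 15 chromosomes predicted 0.68 to 0.74 for chromosome I in the HK isolates. The measured values lay 0.01 to 0.04 below it. With that curve removed, chromosome I in the HK isolates minus the zygotes was -0.002, against 0.72 without. The curve was extended to a chromosome smaller than those it was fitted to, and the cause of the rise was not tested.

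The allele balance of heterozygous SNPs on chromosome I was shifted toward Y in the HK isolates. Median d was -0.17 in both HK12 isolates, -0.11 in HK10 A and -0.08 in HK10 B. It was between -0.03 and 0.00 in all 6 zygotes. Of the heterozygous SNPs, 78.9%, 81.3%, 78.9% and 65.1% had d below 0 in HK12 A, HK12 B, HK10 A and HK10 B, against 48.8% to 55.2% in the zygotes. The median d was below that of all 6 zygotes in 9 of 9 windows of 20 kb in each HK12 isolate, in 9 of 10 in HK10 A and in 6 of 10 in HK10 B. Zygote windows were below 0 in 6 to 8 of 10. Windows and SNPs of the other chromosomes were not counted in this way, so these counts only describe chromosome I.

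No other chromosome had a shift of this size. The HK isolates averaged a median d of -0.14 ± 0.04 on chromosome I, -0.04 ± 0.01 on III, -0.04 ± 0.02 on XII and -0.02 ± 0.02 on VI (SD, n = 4 each). On chromosome VI, whose s was nearly as high, d thus stayed closer to 0. Median d of both HK12 isolates was below that of both HK10 isolates on chromosome I, but also on 14 of the other 15 chromosomes. HK12 minus HK10 was -0.07 on chromosome I, against -0.05 to -0.01 on the others. This difference between the names was not tested. The contrast of HK isolates with zygotes was used to choose the chromosome, so the shift is given as a description.

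**Figure D4:**
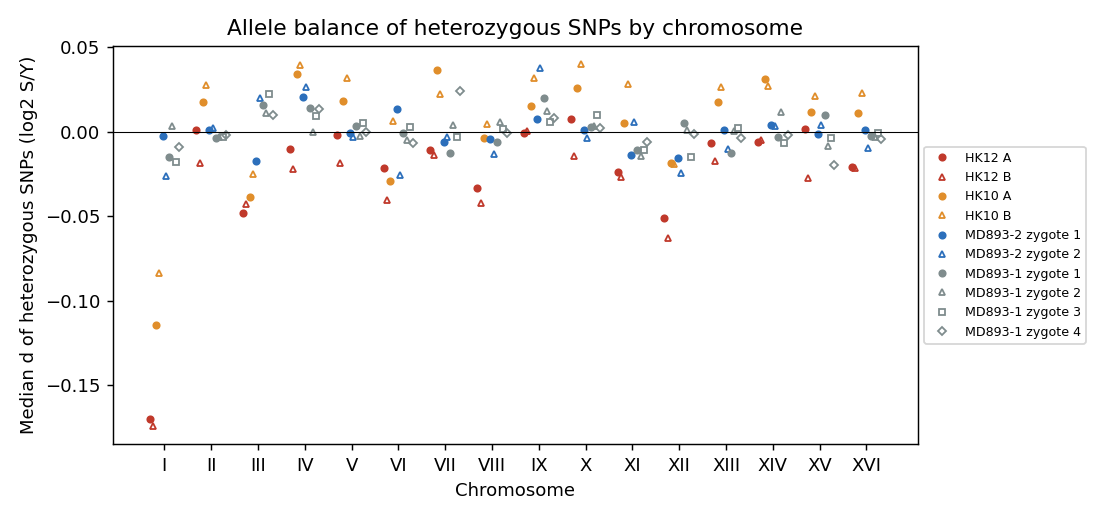
Median d (log2 S over Y) of heterozygous SNPs by chromosome, 1 point per isolate, with colours for the groups and symbols for isolates. On chromosome I the HK isolates lie at -0.17 to -0.08 and the zygotes at -0.03 to 0.00, while on the other 15 chromosomes each isolate lies between -0.06 and 0.04.

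Outside the HK12 stretches, isolated SNPs with a large d were few, and 3 of them recurred in other isolates. No SNP had an absolute d over 1 in 4 or more isolates, and 1 had it in 3, SNP 101701, with 1.38 in HK10 A, 1.22 in HK10 B and 1.37 in MD893-1 zygote 4. Its d was -0.12 to 0.40 in the other MD893-1 zygotes, and it was not measured in HK12 or the MD893-2 zygotes. SNP 186403 had 1.97 in HK12 A and 1.04 in HK10 B, and SNP 176279 had -1.07 in HK12 B and -1.20 in MD893-1 zygote 4. The 2 largest values in an HK isolate were 1.97 at SNP 186403 and 1.85 at SNP 73652, both in HK12 A, and neither SNP was measured in HK12 B. No isolate was hybridised on a repeat array, so the error of a single SNP on 1 array was not measured.

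The comparison of HK12 with HK10 asks whether the rise in s differed between the names. Over the 220 common SNPs the median s was 0.720 in HK12 A and 0.717 in HK12 B, against 0.676 in HK10 A and 0.669 in HK10 B. HK12 was higher by 0.05 with no overlap (exact two-sided permutation p = 0.333, the smallest p that 6 splits allow). Centring each array on all SNPs, instead of on the heterozygous ones, gave a difference of 0.03. In limma with Benjamini-Hochberg adjustment over 9369 SNPs, 0 of the 220 SNPs of chromosome I differed in s between the names. An unadjusted limma p under 0.05 was found at 20 of the 220, against 590 of 9369 SNPs over all chromosomes.

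Over all chromosomes 0.0213% of SNPs were called higher and 0.0534% lower in HK12. The smallest adjusted p on chromosome I was 0.492, at SNP 93104, where s was 0.79 and 0.78 in HK12 A and B, against 0.49 and 0.49 in HK10 A and B. The next 4 were SNPs 179653, 127216, 67844 and 67109, with differences of 0.34, 0.25, -0.27 and 0.26. With HK10 A left out, 1 SNP of chromosome I passed.

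The crosses were compared in the same way. The mean of the median s of chromosome I was -0.022 for MD893-2 (n = 2), against -0.040 ± 0.011 for MD893-1 (SD, n = 4). MD893-2 was higher by 0.018 (exact two-sided permutation p = 0.133, the smallest p that 15 splits allow). The direction turned with the summary: the difference was -0.001 with means over SNPs and -0.009 over SNPs with all 4 probes on every array.

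By limma, 29 of the 220 SNPs had a different s between the crosses, 12 higher (5.45%) and 17 lower (7.73%) in MD893-2. Over all chromosomes 6.54% were higher and 6% lower, so chromosome I was near the background. At SNP 67109, s was -0.36 and -0.48 in the MD893-2 zygotes, against -0.01 to 0.09 in the MD893-1 zygotes (difference -0.44 ± 0.08 (SE), limma adjusted p = 0.00983). At SNP 102472 it was -0.33 and -0.66 in MD893-2, against 0.05 to 0.23 in MD893-1 (difference -0.64 ± 0.12 (SE), limma adjusted p = 0.0112). SNPs 194800, 98874 and 104458 were higher in MD893-2 by 0.33, 0.44 and 0.28, with limma adjusted p of 0.0160, 0.0173 and 0.0176.

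These calls rest on single arrays. Without MD893-2 zygote 2, the array with the highest noise, 2 SNPs passed, and without MD893-2 zygote 1 it was 41. Without MD893-1 zygote 1 it was 17 and without zygote 3 it was 9. The fit on the 6 zygotes alone called 16. The part of array noise in these calls was not tested. The allele difference d gave 0 of 242 SNPs past the threshold between the crosses by limma. Of the 242, 29 had an unadjusted limma p under 0.05, against 1294 of 11730 over all chromosomes. The smallest limma adjusted p was 0.151, at SNP 184217. Over all chromosomes 0% were higher and 0.00853% lower in MD893-2. Without MD893-2 zygote 1, 3 SNPs passed, and without MD893-2 zygote 2, 1 passed.

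The right end of the chromosome was read mostly by S probes alone. Of 147 positions with S probes only in the whole series, 73 lay between 203576 and 218475 of chromosome I, over 14.9 kb past most of its SNPs with both alleles. The median S level there was 0.47 in HK12 A, 0.43 in HK12 B, 0.37 in HK10 A and 0.35 in HK10 B, and -0.05 to 0.07 in the zygotes. The rise of the HK isolates thus reached the last probes of the map, and the S level of SNPs with both alleles was higher, at 0.60 to 0.64.

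Within this stretch, some positions had a higher S level in HK12 than in HK10. At 9 positions in HK12 A and 5 in HK12 B the level was above 1, a limit chosen after the values were seen, against 0 in HK10. Each MD893-2 zygote had 1 such position and the MD893-1 zygotes 0. Of the 61 positions measured in all 4 HK isolates, both HK12 isolates were above both HK10 isolates at 30 and below both at 3. The share of such positions elsewhere was not counted, so nothing is read from these counts. At position 218475, the last of the map, the S level was 1.20 and 1.03 in HK12 A and B, against 0.43 and 0.63 in HK10 A and B. At position 212671 it was 0.79 and 0.71 in HK12, against 0.20 and -0.11 in HK10. At position 210500 it was 0.97 and 0.87 in HK12, against 0.42 and 0.43 in HK10.

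A fit of the S level over all 12926 positions with S probes, added after these values were seen, called 9 of 58 tested positions of this stretch higher in HK12 and 0 lower (limma with Benjamini-Hochberg adjustment). The background was 14% higher and 1.31% lower over all positions, and 8 of 53 S-only positions of the other chromosomes (15.1%) were higher too. The background over all positions includes long homozygous stretches of other chromosomes. Whether the 53 S-only positions lie in such stretches was not checked. Among SNPs heterozygous in all 10 isolates, 0.288% were higher over all chromosomes, with 3 of 220 on chromosome I. The count of this stretch is thus near the shares over all positions and over S-only positions elsewhere, and above that of heterozygous SNPs. Whether it is particular to this stretch was not resolved. At the 58 positions the median difference was 0.14, and 46 were above 0. For the 3 positions named above, the differences were 0.59 ± 0.10, 0.71 ± 0.12 and 0.50 ± 0.09 (SE). These positions were picked from the same values, so their p-values are not given as support.

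Whether an allele was lost in HK12 at these positions could not be read, since they have no Y probe. The single SNP of this stretch with probes for both alleles, 209236, gave signal for both in HK12. Its S level was 1.01 in both HK12 isolates, against 0.60 and 0.69 in HK10 A and B. Its d was 0.16 and 0.04 in HK12, against -0.25 and -0.24 in HK10. No array had a large d at this SNP, so whether its probes tell S from Y was not shown. The 3 positions with Y probes only just left of it, 198587, 198856 and 202934, had Y levels of 0.28 to 0.96 in HK12 and 0.49 to 1.05 in HK10, and none was low in HK12.

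**Figure D5:**
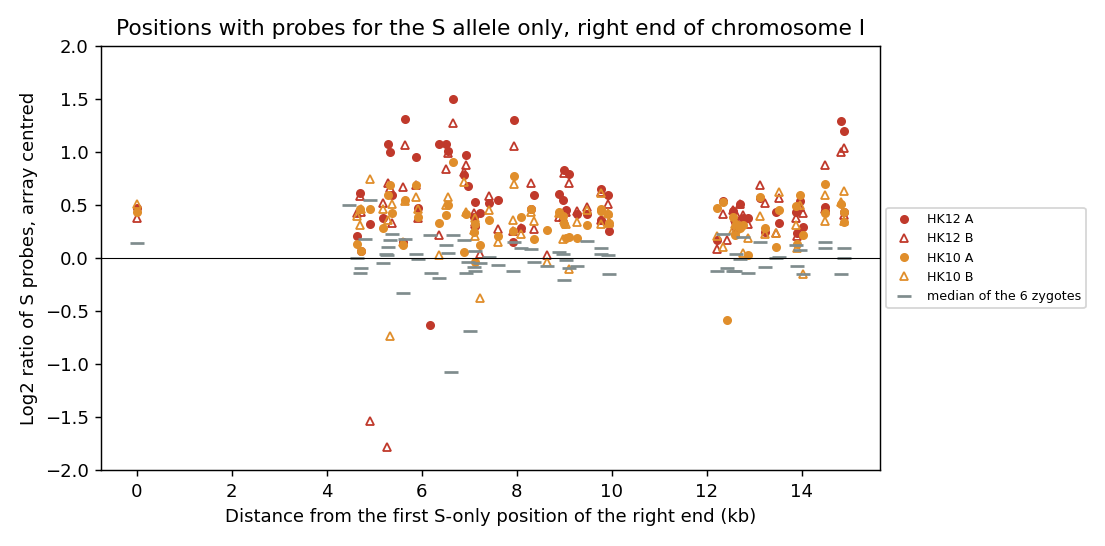
Log2 ratio of the S probes (array centred) at the 73 S-only positions of the right end, against the distance from the first of them in kb, for HK12 A and B, HK10 A and B, and the median of the 6 zygotes; 1 value lies outside the axis. Most HK values lie above the zygote medians, and the 9 values of HK12 A and 5 of HK12 B above 1 fall in a few places along the stretch.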

How the data were processed

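The deposited table holds 1 linear ratio per probe and array. Per the labels, it is of Cy5 isolate DNA over Cy3 DNA of JSC24; a feature filter, a background correction and a genome build are not named, so no gene was placed on positions. The authors' ratio values were converted to log2, and each array's median was subtracted, without loess or quantile normalization. Columns were matched through the strain name, which reads MD891 or MD892 where titles read MD893-1 or MD893-2; groups follow the titles.

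Probes of an allele were averaged, and d was centred on its array median. A hidden Markov model (Student t, 4 degrees of freedom; heterozygous centre 0 with array noise of at least 0.1; homozygous centres 3 and -3, scale 0.8; state change probability 0.0001) called runs of at least 5 SNPs. Borders of the HK12 stretches are SNPs with absolute d over 1.5, set after seeing the values. limma 3.58.1 (R 4.3.3) fitted 4 group means to 10 arrays over all SNPs, with Benjamini-Hochberg adjustment at 0.05; s was tested at SNPs heterozygous in all 10 isolates. Levels were compared by exact permutation over isolates. Both callers were tested on simulated data. The simulated runs lay around the model's own homozygous centres, so SNPs with values of both alleles inside or beside a run were not tested.

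The members and comparisons were chosen with earlier results of these data known. Named SNPs are the first and last of the map and of each run, SNPs next to and between runs, the 3 highest and 3 lowest mean s in HK, the 5 smallest adjusted p of each limma comparison, and those with absolute d over 1 in at least 4 isolates; other positions were named after seeing their values. The number of arrays limits the precision. Replicate numbers did not pair the samples: deviations of same-numbered arrays had r of 0.10 and -0.12 between the crosses and 0.09 for the A isolates of the HK names.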

Additional observations from a re-analysis of the deposited data

How the results depend on the processing

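Under the other settings run, 94 values kept their direction and side of the threshold or stayed within the spread or 1.5 times of a count, 14 moved and 3 reversed. The 94 include the exact permutation results, whose smallest possible p of 0.133 or 0.333 let no setting cross the threshold. They also include many run counts of HK10 and the zygotes that stayed at 0. The tally is therefore no measure of how robust the results are. The 3 reversals were the crosses' difference in s, which became -0.00126 with means over SNPs and -0.00928 over SNPs with all 4 probes on every array, and the HK rise, which became -0.00193 with the length curve removed. That rise was 0.755 when centred on all SNPs and 0.877 when centred on chromosome IV. SNPs in the HK12 A runs numbered 30, and 19 with a minimum of 10 SNPs, since the shorter runs are then left out. Counting single SNPs with absolute d over 1.5 gave 1 in MD893-2 zygote 1 and 3 in zygote 2, against 0 with the model. SNPs with a changed s between the crosses numbered 29, 16 on the zygote arrays alone, and 11 with the replicate block. Positions with a changed S level between HK12 and HK10 numbered 35, and 23 with the replicate block. The 35 were 30 higher (9.17%) and 5 lower (1.53%) in HK12, against 14% and 1.31% over all positions. Of them, 18 higher and 4 lower lay in the HK12 stretches, which were used to choose the chromosome, so the count is no separate result. Right-end positions among those with a changed S level fell from 9 to 6 with the replicate block. The block left the SNPs called for s between the HK names and for d between the crosses at 0. The cause of the moves was not tested.

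Leaving out each replicate gave 2 to 41 SNPs for s between the crosses, 0 to 3 for d between the crosses, 0 to 1 for s between HK12 and HK10, 25 to 37 positions for the S level and 7 to 11 at the right end. It gave 0.708 to 0.733 for the HK rise, 0.042 to 0.049 for HK12 minus HK10 and 0.013 to 0.023 for MD893-2 minus MD893-1. The settings for the S level, the leave-one-out of the HK rise and the borders of the stretches were chosen after seeing the data. SNP spacing and missing probes limit how short a stretch can be seen.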
